A study of Mus musculus with 12 samples.

Results

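Wild-type LSK cells were compared with wild-type GMP cells, the stem and multipotent end and the committed myeloid end of the blood progenitors sorted in this study. The comparison rests on the 6 arrays labelled wild type, 3 of LSK and 3 of GMP, out of 12 arrays in the series. It covers every probe set that carries exactly 1 gene symbol, 21640 of 34760, which were reduced to 19937 genes. LSK cells were sorted from bone marrow as Lin- Sca1+ c-Kit+, and GMP cells as Lin- Sca1- c-Kit+ CD34+ FcγR+. Both came from C57BL/6J Mx1-Cre mice with unmodified Lamtor2 alleles (Lamtor2 wt/wt, written WT here), injected i.p. with pIpC and sorted at day 14. The other 6 arrays hold the same populations from Mx1-Cre mice with floxed Lamtor2 (KO), after the same injection. Mx1-Cre is driven by an interferon-inducible promoter and pIpC is a mimic of double-stranded RNA that induces type I interferon, so both WT groups carry the Cre and received the inducer. The labels do not say whether an LSK array and a GMP array of one number come from the same mouse. The p-values rest on the spread of samples within groups over all 12 arrays, the KO arrays included.

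LSK cells hold the haematopoietic stem cells and the multipotent progenitors, which can still form every blood lineage. GMP cells are restricted to neutrophils, monocytes and their relatives, and they fill primary granules with proteases and myeloperoxidase while they divide. Between these stages, stem cell regulators are known to be silenced, lymphoid, platelet and erythroid genes to be lost, and the C/EBP and IRF8 factors of the myeloid lineages to take over.

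Values are RMA intensities on the log2 scale. A difference is LSK minus GMP in log2 units, given with the standard error (SE) of the limma fit, and a gene passed the test at a Benjamini-Hochberg adjusted p below 0.05 over all 19937 genes. Each adjusted p printed for a gene is from limma. Arrays of one population correlated over genes at 0.9943 to 0.9948 within LSK and at 0.9955 to 0.9961 within GMP, and arrays of different populations at 0.9709 to 0.9764. The test called 3905 genes (19.6%), of which 2047 (10.3%) were higher in LSK and 1858 (9.32%) were higher in GMP. Centring every array on its median turned this split to 1563 and 2989. At least 2-fold differences were found for 846 called genes (4.24%), 540 higher in LSK (2.71%) and 306 higher in GMP (1.53%), or 436 and 383 with the arrays centred. At 4-fold or more the counts were even, with 75 in each direction, while 1 gene in LSK and 8 in GMP stood out by 16-fold or more. The largest differences were at least 5.53 for Dntt, higher in LSK, and -5.02 for F13a1, higher in GMP. The 3 arrays of one population lay wholly above those of the other for 8089 genes (40.6%), and for 3893 of the 3905 called genes. In 224 of the 846 genes, one mean was at or below 5.77, the highest reading of Lamtor2 in the 6 KO arrays. Array background can flatten differences at such levels, so these values may understate the size and are given as at least or marked as bounds. These words refer to background alone and set no limit on error: the SE and the spread among arrays apply as for other genes. The level is that of a single probe set, and the background of other probe sets can differ.

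**Figure D1:**
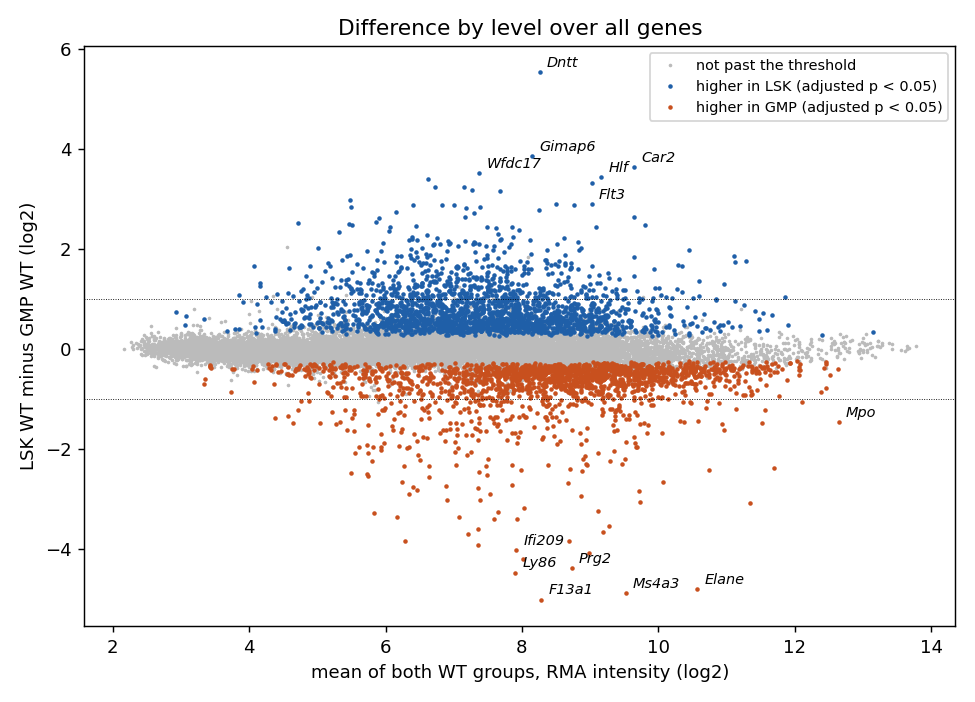
LSK WT minus GMP WT difference (log2) of each of the 19937 genes, plotted against the mean RMA intensity (log2) of both groups, with called genes coloured by direction and dotted lines at a 2-fold difference. Called differences reach 5.53 (Dntt, a lower bound) above the zero line and -5.02 (F13a1) below it, while most genes lie close to 0.

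The sorting gate was checked first. Kit, the stem cell factor receptor present on both populations, read 11.26, 11.47 and 11.29 in LSK arrays 1 to 3 and 10.33, 10.45 and 10.28 in GMP. Cd34 read 11.96 to 12.03 in LSK and 11.23 to 11.49 in GMP. Fcgr3, which encodes an Fcγ receptor of the GMP gate, read 6.45, 5.66 and 5.61 in LSK and 10.29, 10.11 and 9.94 in GMP. The related Fcgr2b read 5.81 to 6.23 and 7.94 to 8.13. The groups did not overlap for any of the 4, and since the sort fixes these genes their differences of 0.99, 0.67, -4.20 and -2.07 are descriptions. The Sca1 gene Ly6a is not analysed here. Defining markers of both labels were at their place: the LSK arrays stood above the GMP arrays for Hlf and Mecom, and below them for Elane and Irf8.

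**Figure D2:**
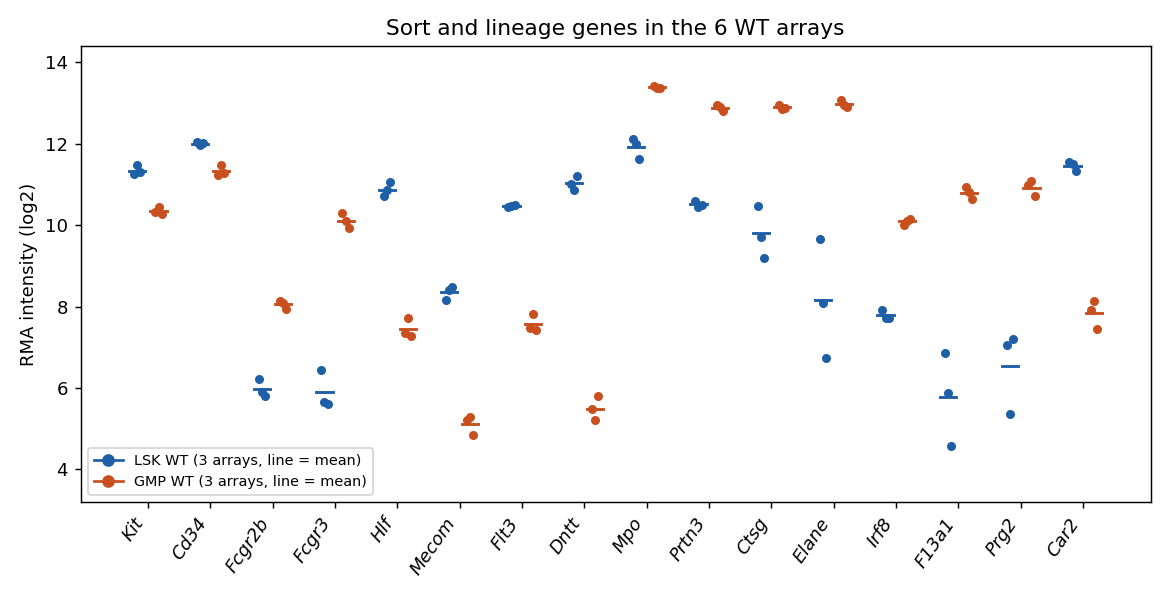
RMA intensity (log2) of 16 sort and lineage genes in the 3 LSK WT arrays (blue) and the 3 GMP WT arrays (orange), with a line at each group mean. Probe sets of different genes are not comparable in level, and within each gene the 2 groups do not overlap. The LSK points of Elane spread from 6.74 to 9.67 and those of F13a1 from 4.58 to 6.87, while their GMP points lie close together.

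Stem cell and multipotent progenitor markers were higher in LSK for 33 of 38 measured members, beside 10.3% of all genes, with a median difference of 1.59 beside -0.03 over all genes. The other 5, Cdkn1c, Gprc5c, Ramp2, Sox18 and Sult1a1, did not pass the test. Hlf, a transcription factor of stem cells, read 10.71, 10.86 and 11.05 in LSK and 7.34, 7.71 and 7.28 in GMP, a difference of 3.43 (SE 0.13, adjusted p = 1.12e-08). Mecom, which encodes the zinc finger factor EVI1, read 8.15, 8.40 and 8.49 in LSK and 5.22, 5.29 and 4.83 in GMP. Its difference was at least 3.23 (SE 0.22, adjusted p = 4.35e-07), and a second Mecom probe set gave 0.79. Flt3, the receptor kinase of lymphoid-primed multipotent progenitors, read 10.45, 10.46 and 10.49 in LSK and 7.49, 7.82 and 7.43 in GMP (difference 2.89, SE 0.14, adjusted p = 3.55e-08). Stem cell genes and a multipotent progenitor gene were both higher in this gate, and the LSK arrays varied little among themselves. The cell adhesion molecule gene Esam, used to enrich stem cells, differed by at least 2.45. Multimerin 1 (Mmrn1) was the least even of the markers, at 7.88, 7.07 and 5.95 in LSK and 3.93 to 4.03 in GMP. The list mean was 8.39 to 8.42 in the LSK arrays and 6.75 to 6.91 in the GMP arrays. In bulk arrays, fewer cells of a type and less RNA per cell cannot be told apart.

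**Figure D3:**
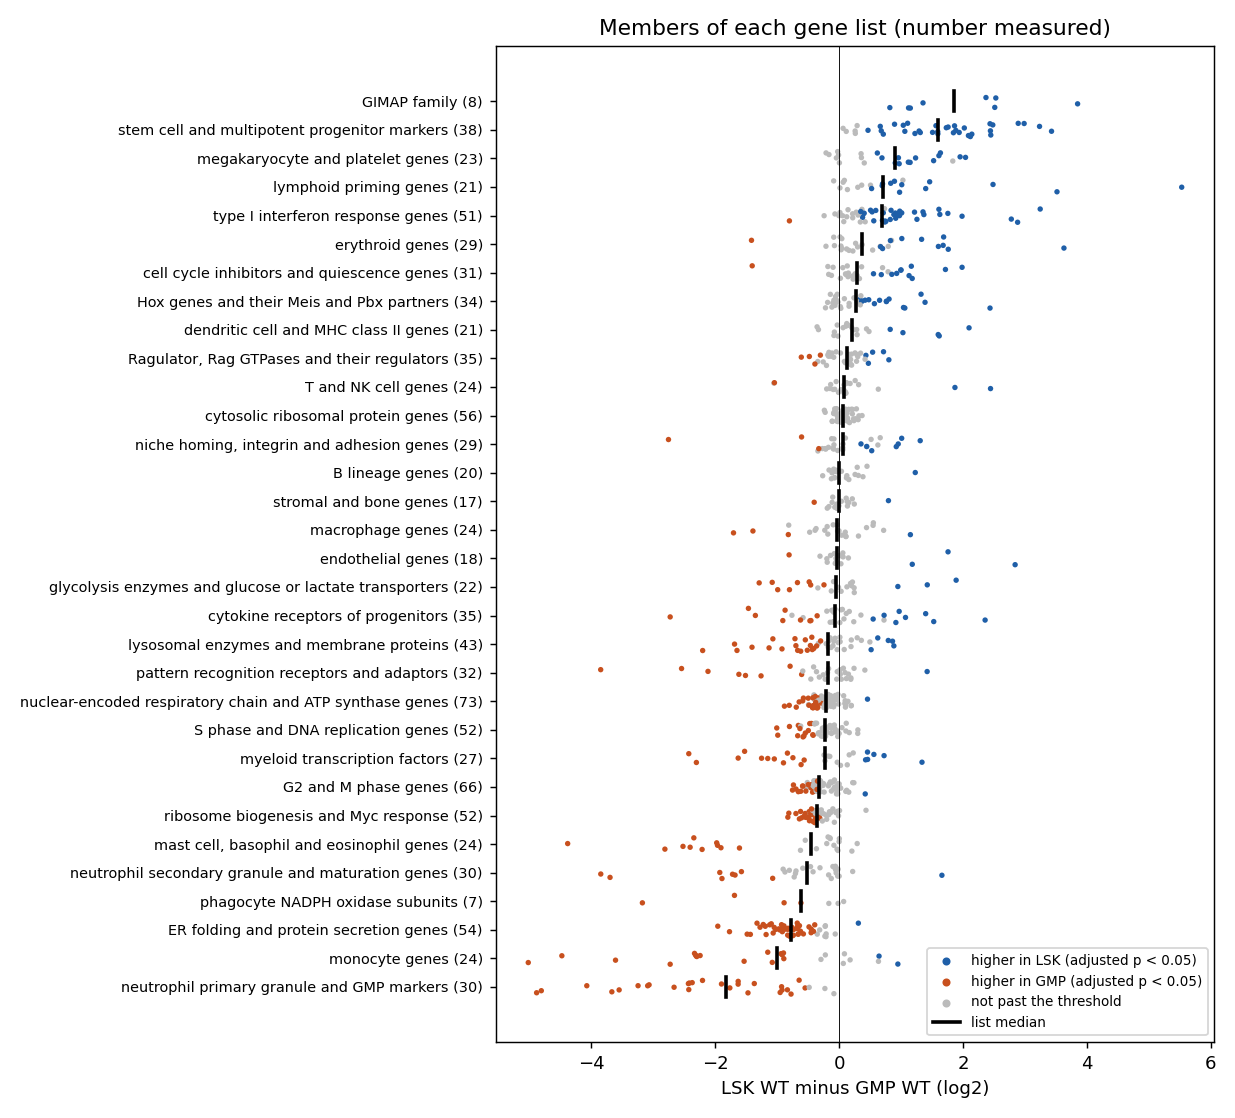
LSK WT minus GMP WT difference (log2) of every measured member of the gene lists, 1 point per gene, with the list median as a black bar and the number of measured members in brackets. Blue and orange points passed the test and grey points did not. The GIMAP family (median 1.86) and the stem cell markers (1.59) lie farthest to the right, and the primary granule genes (-1.83) farthest to the left.

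Outside these markers, the largest differences toward LSK included genes of other roles. Car2, a carbonic anhydrase, read 11.54, 11.51 and 11.33 in LSK and 7.90, 8.14 and 7.44 in GMP (difference 3.63, SE 0.15, adjusted p = 1.73e-08). Ctla2a, which encodes an inhibitor of cysteine proteases, differed by 3.32. The glycosyltransferase gene Gcnt2 differed by 2.88, and Myct1 by 2.90. Stxbp4, which encodes a syntaxin-binding protein, read 9.14 to 9.36 in LSK and 5.65 to 6.37 in GMP, a difference of 3.16, and its other probe set gave 1.49. Rgs1, a regulator of G protein signalling, read 8.65 to 9.11 in LSK and 5.25 to 6.12 in GMP. The predicted gene Gm5111 differed by at least 3.40. The groups did not overlap in any of these genes.

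Homeobox genes of the Hox, Meis and Pbx families, whose A and B clusters are known to act in stem cells, were higher in LSK for 14 of 34 measured members, and the other 20 did not pass. These 14 are 41.2% of the list, against 10.3% of all genes higher in LSK and 19.6% called in either direction. Meis1, a partner of Hox proteins, read 10.21, 10.26 and 10.43 in LSK and 7.61, 8.24 and 7.74 in GMP (difference 2.43, SE 0.21, adjusted p = 3.23e-06). Hoxa5 differed by at least 1.39, Hoxa3 by at least 1.32 and Hoxa9 by 1.04. Hoxa9, the best known Hox gene of blood progenitors, was present in GMP at 7.30 to 7.49 against 8.19 to 8.65 in LSK. With LSK and GMP arrays 1 both left out, 7 members of the list passed, while the calls over all genes fell from 3905 to 2412.

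The GIMAP family of GTPases, which is known from lymphocyte survival, was higher in LSK for all 8 measured members, beside 10.3% of all genes. Its median was 1.86. Gimap6 read 10.02, 10.16 and 10.02 in LSK and 6.13, 6.49 and 6.04 in GMP, a difference of 3.85 (SE 0.21, adjusted p = 7.27e-08), second only to Dntt among differences toward LSK. Gimap7 and Gimap5 differed by at least 2.53 and 2.51, and Gimap1 by 2.37. Gimap9 (1.35), Gimap4 (at least 1.15), Gimap8 (at least 1.12) and Gimap3 (at least 0.82) followed.

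Lymphoid priming genes were higher in LSK for 12 of 21 measured members, 57.1% against 10.3% of all genes, and 9 did not pass. Dntt, which encodes the enzyme that adds bases at the joints of antigen receptor genes, read 11.01, 10.87 and 11.20 in LSK and 5.48, 5.21 and 5.80 in GMP. Its difference of at least 5.53 (SE 0.28, adjusted p = 4.54e-08), at least 46.2-fold, was the largest in either direction. Bcl11a and Satb1, transcription factors of early lymphoid progenitors, differed by 1.46 and 1.01. Wfdc17 read 9.28, 9.09 and 9.04 in LSK and 5.35, 5.87 and 5.63 in GMP, although this gene is better known from activated macrophages than from lymphoid cells. Il7r, the interleukin 7 receptor of committed lymphoid progenitors, read 6.24, 5.37 and 4.73 in LSK and 4.28 to 4.60 in GMP and did not pass (difference 1.03, adjusted p = 0.12), with both means below 5.77. Its difference was 0.63 without LSK array 1 and 1.39 without LSK array 3, and it passed in a fit of the 6 WT arrays alone (adjusted p = 0.0226). The recombinase gene Rag1 differed by 0.08. The LSK arrays were even for Dntt and uneven for Il7r.

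In the list of genes of dendritic cells and MHC class II, 5 of 21 measured members were higher in LSK and the rest did not pass. These 5 are 23.8% of the list, against 19.6% of all genes called in either direction. The members that passed were 4 genes of antigen presentation and the transcription factor gene Tcf4. H2-Aa read 9.47, 9.73 and 9.48 in LSK and 7.18, 8.02 and 7.20 in GMP (difference 2.10, SE 0.22, adjusted p = 1.42e-05). H2-Ab1, Cd74 (the invariant chain) and H2-Eb1 differed by 1.61, 1.60 and 1.03. Cd72 was the single gene of the B lineage list that passed, 1 of 20, with a difference of 1.23, and 2 passed without LSK array 3. Among T and NK cell genes, 3 of 24 passed (12.5%, and 5.0% of the B lineage list, against 19.6% of all genes): Lat (2.44) and Gata3 (at least 1.87) were higher in LSK, and Klrk1 (-1.05, a bound) was higher in GMP. The B lineage list mean was 5.94 to 6.24 in LSK and 5.92 to 6.08 in GMP, and the T and NK list mean 5.22 to 5.36 and 5.13 to 5.22.

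Megakaryocyte and platelet genes were higher in LSK for 13 of 23 measured members, 56.5% against 10.3% of all genes, with a median of 0.90. F2r, the thrombin receptor, read 8.99, 9.01 and 8.48 in LSK and 6.59, 6.89 and 6.88 in GMP (difference 2.04, SE 0.18, adjusted p = 3.49e-06). Gp5 and Gp9, subunits of the von Willebrand factor receptor of platelets, differed by 1.63 and 1.23. Vwf itself did not pass, at 0.36. The list mean was 7.25 to 7.50 in LSK and 6.51 to 6.62 in GMP.

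Erythroid genes were higher in LSK for 10 of 29 measured members and higher in GMP for 1, 37.9% of the list against 19.6% of all genes. Besides Car2, the transcription factor genes Gfi1b, Zfpm1 and Tal1 differed by 1.69, 1.60 and 1.01, and Hemgn by 1.76. These factors also act in stem cells and megakaryocytes. The exception was Tfrc, the transferrin receptor that every dividing cell uses to take up iron. It read 8.63, 8.70 and 8.64 in LSK and 10.14, 10.04 and 10.05 in GMP (difference -1.42, SE 0.11, adjusted p = 1.52e-06). Klf1, the regulator of the late erythroid programme, differed by 0.26 and did not pass.

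Primary granule and GMP markers were higher in GMP for 27 of 30 measured members, beside 9.32% of all genes, with a median difference of -1.83. The other 3, Cd63, Lyz2 and Srgn, did not pass. The serine proteases of these granules (Elane, Prtn3 and Ctsg) and the peroxidase Mpo are made at this stage and stored for mature neutrophils. These 4 genes all rose toward GMP, by different amounts, and their promoters are shown, as the 200 bases before the start of each gene in RefSeq (build GRCm38.p6, 5′ to 3′ on the strand of the gene). Capitals mark 2 short sequences searched on both strands: GAGGAA, the core bound by PU.1, and AACNG, the core bound by Myb, where the complement of a match on the other strand is printed.
Mpo, chr11:87793584-87793783, plus strand: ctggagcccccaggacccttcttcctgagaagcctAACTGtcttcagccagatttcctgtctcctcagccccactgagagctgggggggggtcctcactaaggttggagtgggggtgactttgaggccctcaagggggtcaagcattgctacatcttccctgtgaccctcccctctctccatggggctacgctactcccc
Elane, chr10:79886112-79886311, plus strand: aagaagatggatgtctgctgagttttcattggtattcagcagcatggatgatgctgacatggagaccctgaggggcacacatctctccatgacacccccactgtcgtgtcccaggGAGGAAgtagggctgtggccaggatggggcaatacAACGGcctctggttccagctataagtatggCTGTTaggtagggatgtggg
Prtn3, chr10:79879467-79879666, plus strand: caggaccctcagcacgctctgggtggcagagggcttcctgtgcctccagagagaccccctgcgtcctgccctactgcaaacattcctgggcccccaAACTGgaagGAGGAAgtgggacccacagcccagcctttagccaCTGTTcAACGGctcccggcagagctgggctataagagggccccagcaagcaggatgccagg
Ctsg, chr14:56102575-56102774, minus strand: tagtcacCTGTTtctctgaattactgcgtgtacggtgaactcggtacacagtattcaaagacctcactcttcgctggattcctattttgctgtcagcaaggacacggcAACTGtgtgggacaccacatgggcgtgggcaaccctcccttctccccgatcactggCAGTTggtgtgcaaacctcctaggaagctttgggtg

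GAGGAA lay in the promoters of Elane and Prtn3, which are neighbours on chromosome 10, at 85 and 95 bases before the start. AACNG lay in all 4. The Runx core TGTGGT lay in Ctsg on the other strand, and neither the C/EBP sequence TTNNGNAA nor the GATA core GATAA lay in any of the 4 windows. Of 32851 promoters of the same length, 19.0% held GAGGAA, 65.8% AACNG, 11.2% TGTGGT and 18.1% GATAA, while 9853 held TTNNGNAA. A match is a description of these letters and not a bound site. The lack of a match concerns these exact letters only, because other forms of a site were not searched. Shares by gene set are not given, because only 75.8% of the 306 genes at least 2-fold higher in GMP and 78.3% of all genes were matched to a promoter.

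Elane, neutrophil elastase, read 9.67, 8.09 and 6.74 in LSK arrays 1 to 3 and 13.07, 12.95 and 12.91 in GMP. The difference was -4.81 (SE 0.58, adjusted p = 4.83e-05), a 28.0-fold difference between groups that did not overlap, and it ranged from -5.56 without LSK array 1 to -4.10 without LSK array 3. Ctsg, cathepsin G, showed the same order among the LSK arrays, at 10.48, 9.72 and 9.19 against 12.85 to 12.94 in GMP (difference -3.09, SE 0.25, adjusted p = 1.84e-06). Prtn3, proteinase 3, was even in LSK at 10.45 to 10.59 and read 12.81 to 12.94 in GMP (difference -2.37, SE 0.15, adjusted p = 1.87e-07). Mpo read 12.11, 11.98 and 11.63 in LSK and 13.36 to 13.42 in GMP, a difference of -1.47 (SE 0.14, adjusted p = 5.34e-06), or 2.78-fold. The highest value of any probe set was 14.01 to 14.20 in the 12 arrays, and readings near that top can be compressed. Among the 4 genes the LSK arrays were even for Prtn3 and uneven for its neighbour Elane.

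Other genes that define granulocyte and monocyte progenitors followed. Ms4a3, a membrane protein gene used to trace GMP progeny, read 8.16, 6.63 and 6.44 in LSK and 11.88 to 12.09 in GMP (difference -4.88, SE 0.48, adjusted p = 7.76e-06). Hp, haptoglobin, read 8.01, 7.14 and 5.69 in LSK and 10.93 to 11.16 in GMP, a difference of -4.07 that ranged from -4.61 without LSK array 1 to -3.45 without LSK array 3. Igsf6 and Anxa3 differed by -3.67 and -3.55. Outside the list, Ly6a2, a gene of the Ly6 family, read 6.38, 5.35 and 4.48 in LSK and 8.89 to 9.66 in GMP (difference -3.91, a bound). Clec12a, an inhibitory lectin receptor of myeloid cells, differed by -3.25. Alas1, the first enzyme of haem synthesis in non-erythroid cells, which supplies Mpo with its cofactor, read 8.12 to 8.30 in LSK and 11.15 to 11.42 in GMP (difference -3.07, SE 0.15, adjusted p = 4.54e-08).

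LSK array 1 had the highest reading of the 3 LSK arrays in 168 of the 306 genes at least 2-fold higher in GMP (54.9%), against 28.9% of all genes. In the same way GMP array 2 was the highest GMP array in 313 of the 540 genes at least 2-fold higher in LSK (58.0%), against 35.7% of all genes. The mean of the primary granule list was 8.95, 8.63 and 8.43 in LSK arrays 1 to 3 and 10.81, 10.67 and 10.65 in GMP. Without LSK array 1 its median difference was -2.03. The part of either array in the results was not tested further.

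**Figure D4:**
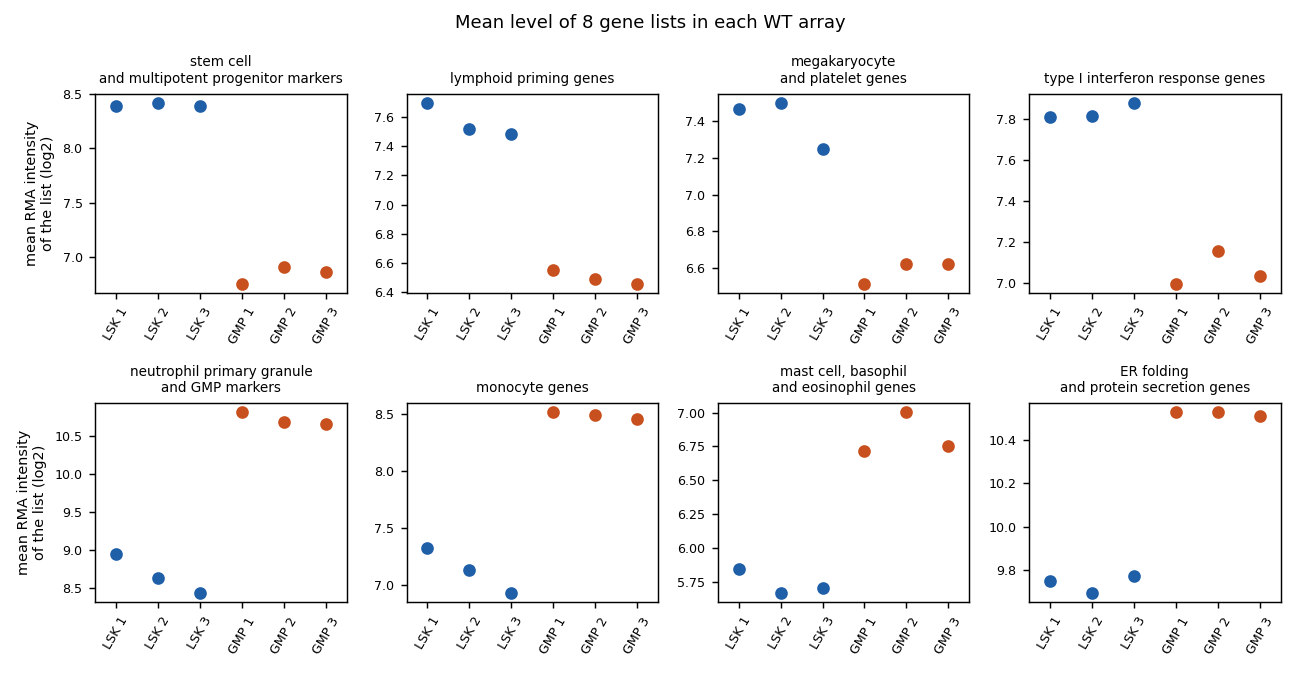
Mean RMA intensity (log2) of the members of 8 gene lists in each WT array (LSK 1 to 3 in blue, GMP 1 to 3 in orange), each panel on its own scale that does not start at 0. The 2 populations do not overlap in any panel. LSK array 1 reads highest of the LSK arrays for the primary granule genes (8.95) and the monocyte genes (7.32). It does so too for the lymphoid priming genes (7.70) and the mast cell, basophil and eosinophil genes (5.85).

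Genes of secondary granules and neutrophil maturation, which are made after the GMP stage, gave another picture. Of 30 measured members 8 were higher in GMP, a larger share than the 9.32% of all genes. Another 1 was higher in LSK and 21 did not pass, and the median was -0.53. The list mean was 7.86, 6.94 and 6.63 in LSK arrays 1 to 3 and 8.47, 7.39 and 7.85 in GMP arrays 1 to 3, so array 1 read highest in each population. Some members were singled out after their values were seen. The calgranulin gene S100a8 read 12.57, 11.39 and 10.80 in LSK and 12.59, 10.59 and 11.79 in GMP. Lactoferrin (Ltf) read 9.11, 7.48 and 6.75 in LSK and 9.25, 6.64 and 7.84 in GMP, and Ngp 10.80, 8.70 and 8.46 in LSK and 10.91, 8.41 and 9.91 in GMP. These genes of maturing neutrophils varied by array and not by population, with differences of -0.07 (S100a8), -0.13 (Ltf) and -0.42 (Ngp) that did not pass. All but 2 members of the list read above 5.77 in at least 1 of the 6 arrays, and the part of these genes in the results of the 2 arrays numbered 1 was not tested. The list median moved to 0.01 without GMP array 1 and to -1.02 without LSK array 1. With both arrays left out it was -0.58, 26 of the 30 primary granule genes still passed, and the median of all 30 was -1.82.

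The members of the maturation list that passed were mostly not granule proteins. Hdc, which makes histamine and is read in early myeloid cells and basophils, read 7.38, 6.63 and 6.30 in LSK and 10.50 to 10.78 in GMP (difference -3.85, SE 0.32, adjusted p = 1.99e-06). Trem3 and Trem1, activating receptors of myeloid cells, differed by -3.70 and -1.93 (both bounds), and Ltb4r1, the leukotriene B4 receptor, by -1.89. Ceacam1 differed by -1.72 and the anti-inflammatory annexin gene Anxa1 by -1.07. In the other direction, Padi4, which converts arginines of histones to citrulline, read 8.25, 7.71 and 7.69 in LSK and 6.19 to 6.29 in GMP (difference 1.66, SE 0.18, adjusted p = 2.26e-05).

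Monocyte genes were higher in GMP for 16 of 24 measured members and higher in LSK for 2, with a median of -1.01. The share called was 75.0%, against 19.6% of all genes. F13a1, the A chain of coagulation factor XIII made by monocytes, read 6.87, 5.87 and 4.58 in LSK and 10.93, 10.81 and 10.64 in GMP. Its difference of -5.02 (SE 0.40, adjusted p = 1.52e-06), or 32.4-fold, was the largest toward GMP and ranged from -5.57 without LSK array 1 to -4.42 without LSK array 3. The LSK mean of F13a1, 5.7717, lay barely above the level of 5.7689 at or below which values are given as bounds. Ly86, the partner of a toll-like receptor relative, read 6.23, 5.85 and 4.92 in LSK and 10.06 to 10.25 in GMP (difference -4.48, a bound, SE 0.34, adjusted p = 9.24e-07). Ccr2, the chemokine receptor that draws monocytes out of the marrow, differed by -3.61 (a bound), and Ms4a6c by -2.30. The 2 exceptions were Crip1 (0.95) and S100a4 (0.64), which are also read in cells other than monocytes. Macrophage genes, by contrast, stayed near the share of all genes, 16.7% against 19.6%: 3 of 24 were higher in GMP, 1 was higher in LSK, and the list mean was 5.65 to 5.87 in LSK and 5.85 to 5.94 in GMP. The macrophage genes that passed were Adgre1 (F4/80, -1.71, a bound), Vcam1 (-1.39) and Cd68 (-0.82), and Apoe in the other direction (1.15). Cd68 did not pass without LSK array 1 (adjusted p = 0.053), and array weights or a fit of the 6 WT arrays alone raised the number called from 4 to 9. Over all genes these settings raised the calls from 3905 to 5684 and 5400.

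Genes of mast cells, basophils and eosinophils were higher in GMP for 10 of 24 measured members, and the other 14 did not pass. These 10 are 41.7% of the list, against 9.32% of all genes. Prg2, the major basic protein of eosinophil granules, read 7.06, 5.36 and 7.20 in LSK and 10.98, 11.08 and 10.71 in GMP. The difference was -4.38 (SE 0.44, adjusted p = 9.20e-06), or 20.9-fold, and -3.79 without LSK array 2. Ms4a2, a chain of the IgE receptor, read 4.69 to 5.33 in LSK and 7.42 to 8.38 in GMP (difference -2.81, a bound, SE 0.44, adjusted p = 3.82e-04). The basophil protease gene Mcpt8 differed by -2.41, the eosinophil genes Prg3 and Epx by -2.35 and -2.21 (both bounds), and the mast cell carboxypeptidase gene Cpa3 by -1.91. All 10 were at least 2-fold higher in GMP. The gate does not separate progenitors of these cells from other GMP.

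Of 27 myeloid transcription factors, 12 were higher in GMP and 6 in LSK, 66.7% of the list against 19.6% of all genes. Cebpe, needed for neutrophil maturation, read 6.96, 6.86 and 6.50 in LSK and 9.10 to 9.26 in GMP (difference -2.43, SE 0.17, adjusted p = 5.78e-07). Irf8, which directs progenitors to monocytes and dendritic cells, read 7.92, 7.72 and 7.72 in LSK and 10.01 to 10.15 in GMP (difference -2.31, SE 0.13, adjusted p = 1.30e-07). Cebpa, required to form GMP, differed by -1.63 and was read at 7.78 to 8.06 in LSK and 9.43 to 9.69 in GMP. Tfec (-1.53), Cebpd (-1.25) and Zeb2 (-0.90) followed. Spi1, which encodes PU.1 and acts from the stem cell on, had a smaller difference of -0.62, and Runx1 (-0.15) and Myb (-0.24), factors of both stages, did not pass. Toward LSK the differences were small, as for Nab2 (0.56), apart from Jun at 1.34. Jun did not pass without LSK array 1 or 3 or GMP array 1 or 2 (adjusted p from 0.0775 to 0.106).

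Cytokine receptors were split, with 8 of 35 higher in LSK and 9 higher in GMP, 48.6% of the list against 19.6% of all genes. Toward GMP stood receptors of the myeloid growth factors. Csf1r, the receptor of macrophage colony-stimulating factor, read 6.82, 6.38 and 6.27 in LSK and 9.18 to 9.28 in GMP (difference -2.73, SE 0.28, adjusted p = 1.28e-05). The shared chain Csf2rb differed by -1.35 and its partner Csf2ra by -0.87, Ifngr1 by -1.47 and Il6ra by -0.91. Csf3r, the receptor of the granulocyte factor, differed by 0.16 and did not pass. Toward LSK stood the interleukin 18 receptor chains Il18r1 (at least 2.36) and Il18rap (1.40), the TGF-beta receptor Tgfbr3 (1.53) and the interleukin 17 receptor Il17ra (1.07).

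Type I interferon response genes were higher in LSK for 33 of 51 measured members and higher in GMP for 1, with a median of 0.70. The share called was 66.7%, against 19.6% of all genes. Rtp4, an interferon-induced chaperone, read 8.79, 8.68 and 8.86 in LSK and 5.32, 5.77 and 5.50 in GMP (difference at least 3.24, SE 0.18, adjusted p = 1.02e-07). Iigp1, a GTPase that attacks the vacuoles of intracellular parasites, read 7.67 to 7.96 in LSK and 4.86 to 5.08 in GMP (difference at least 2.88, SE 0.14, adjusted p = 3.55e-08). The RNA sensor gene Ddx58 differed by 1.98 and Ifi27l2a by 1.62. Mx1, whose promoter drives the Cre in these mice, differed by 0.07 and did not pass. The list mean was 7.81 to 7.88 in LSK and 6.9975 to 7.1555 in GMP. The exception within the list was Gbp3 (-0.80). Outside it, Ifi209, a member of the interferon-inducible PYHIN family, was among the genes farthest toward GMP, at 6.34, 5.92 and 5.42 in LSK and 9.83 to 9.99 in GMP (difference -4.03, SE 0.30, adjusted p = 8.30e-07). Uninjected mice are not analysed here, and the share of the injection in these levels was not tested.

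Pattern recognition receptors were higher in GMP for 8 of 32 members and higher in LSK for 1, 28.1% of the list against 19.6% of all genes. The largest were C-type lectin receptors, with Clec5a read at 4.97, 4.40 and 3.70 in LSK and 8.10 to 8.27 in GMP (difference -3.85, a bound, SE 0.27, adjusted p = 5.07e-07), and Clec4a2 and Clec7a differing by -2.55 and -2.12 (both bounds). Tlr7 was higher in LSK (at least 1.42). Of 7 subunits of the phagocyte NADPH oxidase, which makes superoxide, 4 were higher in GMP, 57.1% against 9.32% of all genes. Cybb, the catalytic subunit, read 7.47, 6.28 and 5.57 in LSK and 9.90, 9.55 and 9.40 in GMP (difference -3.18, SE 0.47, adjusted p = 2.49e-04). The cytosolic subunits Ncf1 and Ncf4 differed by -1.69 and -0.89 and Cyba by -0.62, while Cybc1, Rac1 and Rac2 did not pass.

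Protein folding and secretion in the endoplasmic reticulum (ER) was higher in GMP across most of its genes. Of 54 measured genes 45 were higher in GMP and 1 was higher in LSK, 85.2% of the list against 19.6% of all genes. The median was -0.78, and 14 differed by at least 2-fold. Sdf2l1, a cofactor of ER chaperones, read 8.63, 8.56 and 8.91 in LSK and 10.51, 10.74 and 10.73 in GMP (difference -1.96, SE 0.11, adjusted p = 8.79e-08). Ero1a and Pdia6, which form disulphide bonds, differed by -1.77 and -1.43, and the chaperone gene Hyou1 by -1.33. The list mean was 9.69 to 9.77 in LSK and 10.51 to 10.53 in GMP, with little spread among the arrays of a population. Most of these differences were smaller than those of the granule genes.

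Ribosome biogenesis and Myc response genes were higher in GMP for 25 of 52 measured members, 48.1% of the list against 9.32% of all genes. The median was -0.35, and none of the 25 reached 2-fold. Bysl (-0.83) and Rrs1 (-0.81), assembly factors of the ribosomal subunits, were the largest of those named. In contrast, limma called 0 of 56 cytosolic ribosomal protein genes, beside 19.6% of all genes, and 10 had an unadjusted limma p below 0.05. Their list mean was 12.33 to 12.34 in LSK and 12.24 to 12.30 in GMP. Their median of 0.06 turned to -0.04 with arrays centred on their median. The number called was 9 with a repeated quantile normalisation, 9 with the trend and robust options of limma and 7 with array weights.

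Of the cell cycle lists, 26.9% of S phase genes and 25.8% of G2 and M phase genes were called, against 19.6% of all genes. Those called were mostly higher in GMP, the direction of 9.32% of all genes. Of 52 S phase genes 14 were higher in GMP, with a median of -0.23, led by the replication factor gene Cdc45 (8.59 to 8.77 in LSK and 9.64 to 9.75 in GMP, difference -1.01, SE 0.14, adjusted p = 1.26e-04) and by Rrm2 (-0.99), a subunit of ribonucleotide reductase. The number of S phase genes called was 24 with arrays centred, 25 with array weights and 23 in a fit of the 6 WT arrays alone. Over all genes, 4552, 5684 and 5400 were called in these settings, in place of 3905. Of 66 G2 and M phase genes 16 were higher in GMP and 1 in LSK, with a median of -0.32. Examples were the mitotic kinase gene Bub1 (-0.75) and the kinetochore motor gene Cenpe (-0.74). The number of G2 and M phase genes called, 17, fell to between 5 and 11 when LSK array 2 or 3 or any GMP array was left out, and rose to 32 in a fit of the 6 WT arrays alone. The 3905 calls over all genes fell to between 2980 and 3206 with any 1 WT array left out, and rose to 5400 in the WT fit. LSK array 1 read highest of the LSK arrays for this list, at 8.95 against 8.70 and 8.77.

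Cell cycle inhibitors and quiescence genes were higher in LSK for 11 of 31 measured members and higher in GMP for 1. The share called was 38.7%, against 19.6% of all genes. Txnip, which restrains glucose uptake and is high in resting stem cells, read 11.34, 11.55 and 11.46 in LSK and 9.37 to 9.59 in GMP (difference 1.98, SE 0.12, adjusted p = 1.45e-07). Foxo3, a transcription factor that maintains quiescence, read 9.65, 9.67 and 9.65 in LSK and 8.80 to 8.81 in GMP (difference 0.85, SE 0.12, adjusted p = 1.49e-04). Sesn1, a stress-induced inhibitor of mTORC1, differed by 0.99 and Ccng2 by 1.00. Gadd45b was the exception (-1.40).

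Energy metabolism was divided. Among glycolysis genes 8 of 22 were higher in GMP and 3 in LSK. Isoforms of phosphofructokinase stood on opposite sides: Pfkp read 7.56 to 7.60 in LSK and 8.75 to 8.94 in GMP (difference -1.29, SE 0.12, adjusted p = 6.22e-06), and Pfkm read 8.08 to 8.09 in LSK and 6.99 to 7.24 in GMP (difference 0.95, SE 0.11, adjusted p = 2.69e-05). The glucose transporter gene Slc2a3 was higher in LSK (1.42) and Pgam1 was higher in GMP (-1.08). Of 73 nuclear-encoded genes of the respiratory chain and ATP synthase, 22 were higher in GMP and 1 in LSK, with a median of -0.21 and none at 2-fold. The share called was 31.5%, against 19.6% of all genes. Cycs, cytochrome c, differed by -0.88, but of its 3 probe sets 1 gave -0.0034 and the mean over them did not pass (adjusted p = 0.059). The number called, 23, was 13 to 15 without LSK array 1 or 2 or any GMP array, 10 after a repeated quantile normalisation and 36 with array weights. Calls over all genes, 3905, were 2980 to 3206 with any 1 WT array left out, 3811 after the repeated normalisation and 5684 with array weights.

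Adhesion and homing genes were mixed, with 7 of 29 higher in LSK and 3 in GMP, 34.5% of the list against 19.6% of all genes. S1pr1, which guides egress into the blood, was higher in LSK (1.31), and the collagen receptor subunit Itga1 read 4.88 to 5.13 in LSK and 7.57 to 8.02 in GMP (difference -2.76, a bound, SE 0.16, adjusted p = 1.31e-07). The endothelial list had 3 of 18 members higher in LSK, Emcn (at least 2.84), Egfl7 (1.76) and Erg (1.18), which are also read in stem cells, and 1 higher in GMP, Flt1 (-0.81, a bound). These 4 are 22.2% of the list, near the 19.6% of all genes. Cdh5, the defining cadherin of endothelium, differed by -0.08 and did not pass. The endothelial list mean was 6.28 to 6.34 in LSK and 6.06 to 6.12 in GMP. Stromal and bone genes had 1 of 17 in each direction, 11.8% of the list and below the 19.6% of all genes. Their list mean was 5.17 to 5.28 in LSK and 5.12 to 5.26 in GMP.

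Ragulator, the lysosomal anchor of Rag GTPases and mTORC1 of which Lamtor2 is a subunit, varied little between the WT populations. Lamtor2 read 10.39, 10.48 and 10.31 in LSK and 10.80, 10.82 and 10.61 in GMP, and although these did not overlap the difference of -0.35 did not pass (SE 0.17, adjusted p = 0.19). It passed in a fit of the 6 WT arrays alone (adjusted p = 0.0178) and with array weights (0.0432). Lamtor4 differed by -0.48 (SE 0.15, adjusted p = 0.0357), a call lost when any of the 6 arrays was left out. Lamtor1 (-0.05), Lamtor3 (0.16) and Lamtor5 (-0.12) did not pass. Of 35 genes of Ragulator, the Rag GTPases and their regulators, 5 were higher in LSK and 4 in GMP, 25.7% against 19.6% of all genes. The number called, 9, was 4 or 5 without LSK array 2 or 3 or GMP array 2 or 3. In those fits the 3905 calls over all genes fell to between 2980 and 3206. Castor1, an arginine sensor upstream of the Rag GTPases, differed by at least 0.72, its paralogue Castor2 by 0.80, and Sec13 by -0.61.

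Lysosomal genes were higher in GMP for 19 of 43 measured members and higher in LSK for 5, 55.8% of the list against 19.6% of all genes. Cathepsin H (Ctsh) read 6.63, 6.29 and 6.25 in LSK and 8.71, 8.72 and 8.35 in GMP (difference -2.20, SE 0.25, adjusted p = 3.02e-05). The hydrolase genes Gla, Arsb and Galns differed by -1.69, -1.65 and -1.13, and Ctsz by -1.41. The 5 toward LSK were smaller, among them Ids (0.88) and Ctso (0.86).

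The LSK to GMP step was also measured in the KO arrays, which share no array with the WT step. Of the 846 genes at least 2-fold apart in WT, 784 had the same sign in KO and 599 (70.8%) also passed there, and the median ratio of the KO to the WT difference was 0.54. These genes were chosen by their WT values, so a smaller value in other arrays is partly built in. The interaction test, which compares the steps directly over all genes, called 1591 genes (7.98%), and 343 of the 846, of which 339 had the smaller step in KO. The WT values that chose the 846 also enter this test, so the counts of 343 and 339 are partly built in as well. The count of 1591 fell to 800 without GMP WT array 2, 915 without LSK WT array 2, 1012 without GMP WT array 3, 1056 without LSK WT array 1 and 915 without LSK KO array 3. The root mean square deviation from the group mean was 0.13 in LSK WT, 0.12 in GMP WT, 0.14 in LSK KO and 0.22 in GMP KO.

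Steps with a mean at or below 5.77 are bounds here too, and interactions that rest on them are fitted values. For several markers the steps were not shown to differ. Dntt differed by at least 5.75 in KO and at least 5.53 in WT (interaction adjusted p = 0.799), Car2 by 3.15 against 3.63 (0.217), and Meis1 by 2.27 against 2.43 (0.81). Prg2 had a step of -5.63 in KO against -4.38 in WT (0.26). For others the interaction passed. Wfdc17 differed by at least 3.52 in WT and by -0.98 in KO, a fitted interaction of 4.50 (SE 0.56, adjusted p = 0.0012). The metalloprotease inhibitor gene Timp2 differed by 1.79 in WT and -1.32 in KO. Rgs1 differed by at least 3.18 in WT and 0.35 in KO, and Rtp4 by at least 3.24 and 0.98. Toward GMP, Ifi209 had a step of -4.03 in WT and -0.84 (a bound) in KO, a fitted interaction of -3.19 (SE 0.42, adjusted p = 0.0015), and Ccr2 -3.61 (a bound) and -1.05. Tfrc differed by -1.42 in WT and 0.09 in KO. Ccr9 and Ms4a4a had both WT means below 5.77 and no WT step that passed, at 0.30 and -0.33, with KO steps of 3.11 and -3.26 (a bound). Beside 7.98% of all genes, the interaction called 29 of 66 G2 and M phase genes, 28 of 52 ribosome biogenesis genes, 27 of 54 ER folding genes, 15 of 30 primary granule genes and 13 of 38 stem cell markers. It called 2 of 29 erythroid genes, near the share of all genes, and 1 of 34 Hox, Meis and Pbx genes. Of the dendritic cell, T and NK cell, mast cell and ribosomal protein lists it called 0. The unadjusted limma p of the interaction was below 0.05 for 18 of their 125 measured members, beside 4440 of all 19937 genes. Many of these members were dim. In all 6 WT arrays, 15 of 24 T and NK cell, 9 of 24 mast cell and 7 of 21 dendritic cell genes read at or below 5.77. Background can flatten steps there.

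**Figure D5:**
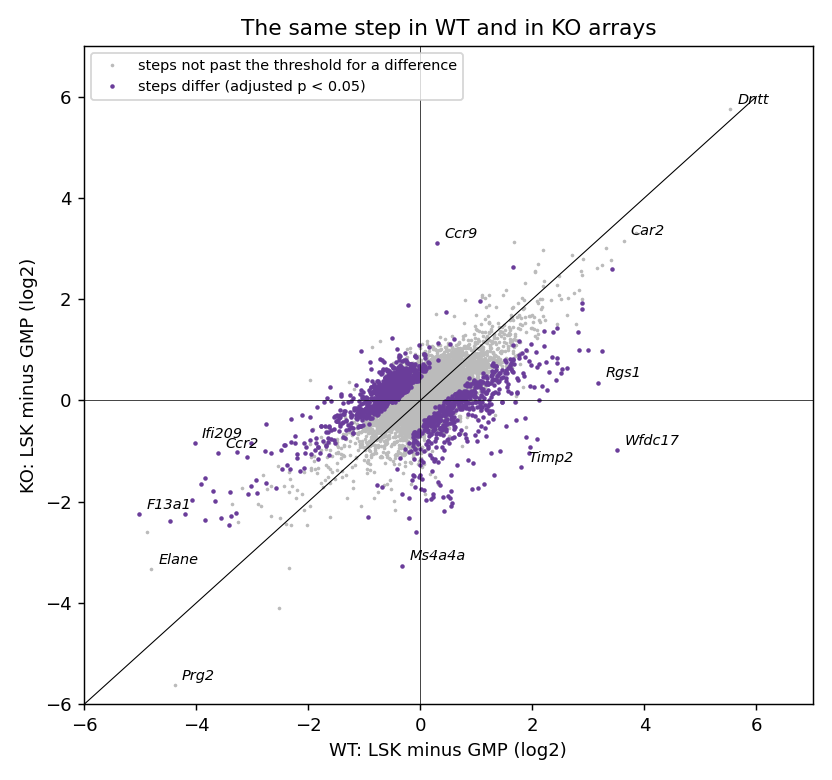
LSK minus GMP difference (log2) of each gene in the WT arrays (x axis) and in the KO arrays (y axis), with the line of equal steps. Purple genes passed the interaction test. Dntt lies near the line (5.53 and 5.75, both lower bounds), while Wfdc17 (3.52, a lower bound, and -0.98) lies below it and Ccr9 (0.30 and 3.11) above it.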

How the data were processed

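Gene expression was measured on 12 Affymetrix arrays, 3 each of LSK and GMP cells from WT and KO mice, and grouped by the titles in the labels. The deposited values are log2 intensities that the authors made with RMA (background correction, quantile normalisation and probe summary), per the submitters' processing notes. Software, version and genome build were not given in the sources used here. No values were rescaled: array medians ran from 5.96 to 6.18. No column lay outside the 12 samples.

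Probe sets were named through the platform annotation, with 21553 of the 21640 single-symbol sets brought to current symbols by gene identifier. Where several sets measured one gene (954 genes), the brightest on average over the 12 arrays stood for it. One limma fit (version 3.58.1, R 4.3.3) of 4 groups over 12 arrays, with 8 residual and 5.16 prior degrees of freedom, gave LSK WT minus GMP WT and the interaction of the WT and KO steps, two-sided, with Benjamini-Hochberg adjustment over 19937 genes at 0.05. The script was tested on simulated data. The number of arrays limits the precision: the SE was 0.12 at the median gene. With 3 arrays a group, an exact permutation test of a single gene could not go below 0.1, and none is given.

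The members and the 33 gene lists (1166 entries, 1054 measured) were chosen with earlier results of these data known. The text names the 15 largest differences in each direction whose arrays do not overlap, up to 6 members of a list in each direction by smallest p, the gate genes, Lamtor1 to Lamtor5, Mpo, Elane, Prtn3 and Ctsg, and the 10 largest interactions in each direction. Some list members and 8 of the 20 largest interactions are left out for space. A few genes that did not pass, and the members of small counts, were named after their values were seen, among them Rag1, Il7r, Vwf, Klf1, Spi1, Runx1, Myb, Csf3r, Mx1, Cdh5, S100a8, Ltf, Ngp, Gimap3 and Gimap8. Alternatives changed the normalisation, the filter on dim genes, the choice of probe set, the variance model, the array weights, the arrays in the fit and the replicate block, and left out each array in turn.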

Additional observations from a re-analysis of the deposited data

Results flagged for a closer look

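The LSK to GMP step of WT arrays differed from the step of KO arrays, by the limma interaction test, for 65 of the 182 genes named in the text (adjusted p from 0.000318 to 0.0476). Values here are the WT step minus the KO step on the log2 scale. A positive value means that the WT step lay further toward LSK, as in 27 of these genes, and a negative value that it lay further toward GMP, as in 38. The KO step was smaller in size for 61 of the 65, the exceptions being Ccr9, Il7r, Ms4a4a and Vwf, and it had the opposite sign for 9 (Apoe, Bysl, Cenpe, Il7r, Tfrc, Timp2, Tlr7, Vwf and Wfdc17). Most of the genes were chosen by the size or p of the WT step, and 12 of the 65 were named among the largest interactions, so these counts are partly built in. A group mean at or below 5.77, the level of Lamtor2 in the KO arrays, lay behind 22 of the 65, whose values are fitted and may be compressed by array background.

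Among genes with the WT step further toward LSK, the stem cell and multipotent progenitor genes gave 1.02 (Esam), 1.08 (Flt3), 0.83 (Hlf), 1.98 (Mmrn1) and 0.76 (Hoxa3). The vessel and platelet genes gave 1.84 (Emcn), 0.93 (Egfl7) and 1.03 (Vwf), and the erythroid gene Hemgn gave 0.59. Lymphoid and GIMAP genes gave 2.75 (Il7r), 4.50 (Wfdc17), 1.03 (Gimap1) and 1.91 (Gimap7). Interferon response and sensor genes gave 2.27 (Rtp4), 0.96 (Iigp1), 0.86 (Ddx58), 1.49 (Ifi27l2a) and 2.43 (Tlr7), and the interleukin 18 receptor chains 1.50 (Il18r1) and 0.85 (Il18rap). The others were 3.11 (Timp2), 2.94 (Ms4a4a), 2.83 (Rgs1), 1.69 (Apoe), 1.28 (Txnip), 0.78 (Ids) and 0.65 (Castor2).

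Among genes with the WT step further toward GMP, the granule and GMP genes gave -1.97 (Ctsg), -1.10 (Prtn3), -2.10 (Hp), -1.69 (Igsf6), -1.22 (Anxa3) and -1.22 (Alas1). Monocyte and myeloid receptor genes gave -2.77 (F13a1), -2.09 (Ly86), -2.56 (Ccr2), -1.96 (Fcgr3), -0.73 (Fcgr2b), -1.49 (Clec5a), -1.14 (Csf2rb), -1.34 (Trem1) and -1.92 (Trem3). The transcription factor genes gave -1.12 (Cebpa) and -1.49 (Irf8), the oxidase subunits -0.80 (Ncf1) and -0.54 (Ncf4), and the interferon-inducible genes -3.19 (Ifi209) and -0.68 (Gbp3). ER folding genes gave -1.27 (Ero1a), -0.92 (Hyou1), -1.10 (Pdia6) and -0.90 (Sdf2l1). Genes of growth and metabolism gave -1.01 (Bysl), -0.80 (Rrs1), -1.30 (Cenpe), -0.77 (Cycs), -0.81 (Pfkp), -0.75 (Pgam1) and -1.51 (Tfrc). The others were -2.26 (Ly6a2), -0.58 (Anxa1), -0.83 (Arsb), -2.81 (Ccr9), -2.32 (Hdc) and -2.30 (Itga1). The GMP KO arrays varied most among themselves, and their part in these values was not tested.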

How the results depend on the processing

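The 846 genes called and at least 2-fold apart were 801 to 870 under every alternative that tested genes, with 742 to 846 of them shared with the main result, and 928 when each probe set was tested on its own. Of the 182 genes named in the text 153 were called, and none of these turned its sign in any of the 15 alternatives run for each gene, while 144 kept the call in all of them. The 9 that lost it in some alternative were Apoe, Bub1, Cd34, Cd68, Cyba, Cycs, H2-Eb1, Jun and Lamtor4. Il7r, Lamtor2, Lyz2, Myb, Srgn and Vwf gained a call in some.

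The replicate block, with the replicate number within each genotype as a block, gave 3616 genes called in place of 3905, 854 at 2-fold (844 shared) and 1303 in the interaction in place of 1591, and it ended the call of Lamtor4 (adjusted p = 0.0683). Deviations of same-numbered WT arrays from their group means correlated over genes at 0.18, -0.03 and 0.08, and those of differently numbered arrays at -0.16 to 0.06. Arrays 1 and 3 correlated best with their own number and arrays 2 did not. These values do not settle whether the numbers pair the samples, and the main fit has no block. The block changed no other call of a named gene.

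With the arrays centred on their median, the median of all genes moved from -0.03 to -0.12, 2989 genes were higher in GMP in place of 1858, and 34.3% of calls in place of 52.4% were higher in LSK. List medians became 1.50 (stem cell markers), 0.11 (dendritic cell), -0.13 (endothelial), -0.10 (stromal), 0.17 (Hox), -0.32 (S phase, with 24 called), 0.19 (quiescence), -0.45 (ribosome biogenesis), -0.88 (ER), -0.30 (respiratory chain), -0.16 (cytokine receptors), -0.036 (adhesion), 0.028 (Ragulator) and -0.27 (lysosome). The ribosomal protein median turned to -0.035, and Cybc1 (-0.023), Gprc5c (-0.032), Mx1 (-0.021) and Rag1 (-0.011), which were not called, turned sign. With quantile normalisation repeated, medians became 1.67 (stem cell markers), -0.12 (S phase), -0.29 (ribosome biogenesis), -0.67 (ER), -0.041 (respiratory chain, 10 called) and -0.47 (NADPH oxidase), and 9 ribosomal protein genes were called. The uncalled Cd63 (0.064), Lamtor1 (0.0098), Rac1 (0.16), Rac2 (0.026), Runx1 (0.0039) and S100a8 (0.082) turned sign. Without the dimmest 30% of genes, medians became 0.93 (lymphoid), -1.76 (mast cell) and 0.35 (Hox), with 1 stromal and 3 ribosomal protein genes called. The trend and robust options called 9 ribosomal protein genes. The mean of all probe sets turned Gprc5c to -0.032.

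Array weights called 5684 genes in place of 3905, 2873 higher in LSK and 2811 higher in GMP. With them 9 macrophage, 9 dendritic cell, 2 B lineage, 25 S phase, 31 G2 and M, 36 respiratory chain, 7 ribosomal protein and 16 adhesion genes were called. A fit of the 6 WT arrays alone called 5400 genes, 2728 higher in LSK and 2672 higher in GMP, and it gives no interaction. Its calls held 9 macrophage, 2 B lineage, 23 S phase, 32 G2 and M, 4 ribosomal protein, 16 adhesion and 15 Ragulator genes. The cause of these changes was not tested.

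Leaving out 1 array, or LSK and GMP arrays 1 together (chosen after seeing the data), gave 2412 to 3206 genes called, 1294 to 1724 higher in LSK, 1118 to 1494 higher in GMP and 645 to 2006 in the interaction, the lowest of each with both arrays left out. The highest count of the interaction came without GMP KO array 1. List medians ranged from 1.53 to 1.67 (stem cell markers), -2.03 to -1.75 (primary granules), -1.02 to 0.0062 (secondary granules), 0.72 to 1.00 (platelet), 0.21 to 0.58 (erythroid), -0.078 to 0.066 (stromal), -0.42 to -0.33 (ribosome biogenesis), -0.23 to -0.21 (respiratory chain) and -0.041 to 0.080 (adhesion). Members called ranged from 2 to 5 (macrophage), 1 to 2 (B lineage), 7 to 12 (Hox), 5 to 14 (G2 and M), 10 to 16 (respiratory chain), 0 to 1 (ribosomal proteins), 6 to 9 (adhesion) and 4 to 6 (Ragulator). Uncalled genes that turned sign were Cdh5 (-0.13 to 0.0018), Gprc5c (-0.026 to 0.16), Lamtor1 (-0.12 to 0.017), Ltf (-0.79 to 0.54), Ngp (-1.16 to 0.16), Rac1 (-0.039 to 0.0048), Rag1 (-0.029 to 0.20) and S100a8 (-0.60 to 0.40).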

Other observations

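Probe sets without exactly 1 gene symbol were tested together with the others in a limma fit of all 34760 sets. Of 13120 such sets, 780 passed the limma test (5.9%), as did 3459 of the 21640 probe sets with 1 symbol in the same fit. Of those that passed, 111 were at least 2-fold higher in LSK and 58 at least 2-fold higher in GMP. They are not named here. The weights that limma gave the arrays from their fit to the group means ran from 0.988 to 2.148 over the 6 WT arrays, with GMP array 1 the highest, and from 0.190 to 1.287 over the 6 KO arrays, with GMP KO array 1 the lowest.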
